A study of Mus musculus with 30 samples.

Results

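Transcripts of 10 heat shock proteins and chaperones were followed in cells sorted by FACS as cortical interneurons of mice: Hspa1a, Hspa1b, Hspa8, Hsph1, Dnajb1, Hsp90aa1, Hsp90ab1, Hspd1, Hspe1 and Hspb1. They were taken by gene symbol from a table of 23993 genes. All 10 were in the table, and all 10 passed the filter on low values in each comparison.

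The cells came from the medial prefrontal cortex (mPFC) of C57BL/6 mice aged 6 to 12 weeks. Every animal was heterozygous for a Cre-dependent tdTomato reporter (Ai9) and for a Cre recombinase driven from the Sst or the Pvalb locus, so that somatostatin or parvalbumin interneurons carried the red label used for sorting. A cell that expressed the driver gene only earlier in life keeps the label. The tissue of all groups was digested with papain at 37 °C for 20 min before sorting. The groups were nonstressed Sst females (7 libraries), nonstressed Sst males (7), Sst males after 14 days of chronic unpredictable stress (CUS, 3) and nonstressed Pvalb males (7). A further 6 labelled samples, all female (1 Pvalb control, 3 Sst CUS and 2 Pvalb CUS), were not analysed here. The study gives its numbers for the comparison of the lines in mice, but no label ties a library to an animal, so p-values measure the spread between these samples, which may be technical in part.

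Chaperones bind proteins that are unfolded or newly made and help them to fold. HSP70 proteins (Hspa1a, Hspa1b and Hspa8) work in a cycle with a J-domain partner that loads the client (Dnajb1) and an exchange factor that frees it (Hsph1), and HSP90 proteins (Hsp90aa1 and Hsp90ab1) take over partly folded clients such as kinases and steroid receptors. Hspd1 and Hspe1 form the folding chamber of mitochondria and its lid, and Hspb1 is a small heat shock protein that holds unfolded proteins without ATP. Hspa8 and Hsp90ab1 are made by nearly all cells at rest, while Hspa1a, Hspa1b, Dnajb1, Hsp90aa1 and Hsph1 are known as genes that heat and other proteotoxic stress induce through heat shock factor 1 (Hsf1), a transcription factor that binds heat shock elements.

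The promoters were searched for that element because it is the sequence through which the family is known to be switched on together. RefSeq start sites (GRCm38.p6) with windows of 300 bases, 250 before and 50 after the start, were found for 7 of the 10 genes. Hspa8, Hsp90aa1 and Hsp90ab1 were not among them. The pattern searched was 3 alternating units of the element, which is GAANNTTC continued by 2 free bases and GAA, or TTCNNGAA continued by 2 free bases and TTC, each being the other read on the opposite strand. It occurred in windows of 3 of the 7 genes, Hspd1, Hspe1 and Hsph1, and in 198 of all 32851 windows (0.603%). No match says only that these letters were not in the window. The stretches below are 30 bases each, 5′ to 3′ on the strand of the gene, with the matched element in capitals.
Hspe1 (chr1:55088053-55088082, plus strand, element 89 to 72 bases before the start): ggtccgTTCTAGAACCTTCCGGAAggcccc
Hspd1 (chr1:55088053-55088082, minus strand, element 144 to 127 bases before the start): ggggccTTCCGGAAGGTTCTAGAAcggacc
Hsph1 (chr5:149636279-149636308, minus strand, element 15 to 27 bases after the start): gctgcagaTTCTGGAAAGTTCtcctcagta
The lines for Hspe1 and Hspd1 are the same DNA read from either side. Hspd1 (chr1:55077833-55088243) and Hspe1 (chr1:55088148-55091317) are neighbours that are read away from each other, and of the 2 windows of Hspd1 only that of its downstream start held the element. The annotated 5′ ends of both genes overlap beside it, so reads from the overlap could be given to either gene unless strand was used.

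Several features of the libraries bear on these genes. Among the Sst males, the titles of 4 control libraries have 1 digit (SST4-M and SST3-M, and the pair SST1-M and SST0-M), as most female and all Pvalb titles do. Those of the other 3 controls (SS04031R, SST040241L, SST04241LL) and of the 3 CUS libraries have digits that resemble a calendar day. They are called numbered and dated, and the main comparisons were kept within 1 kind of title, which is a choice made here and not one stated in the study's methods. The values of SST0-M and SST1-M were almost identical, as were those of PV0-M and PV2-M, and each pair was averaged to 1 sample, which left 22 samples (7 female, 3 numbered male, 3 dated male, 3 dated CUS male and 6 Pvalb male). Small nucleolar RNA genes held 53.5% to 60.3% of total FPKM in the dated control libraries and 54.6% to 75.7% in the CUS libraries, against 1.87% to 8.29% in the numbered libraries. The study's methods give a single range of reads for all samples. The exact number for each library is unknown, and relative depth estimated from the smallest values ran from 0.457 to 2.48 times that of SST2-F. It was 0.457 to 1.53 in females, below all numbered male libraries (1.66 to 2.48). In dated controls it was 0.763 to 0.940, below all CUS libraries (1.05 to 1.13), and in Pvalb libraries 0.476 to 1.83. The part of depth in the comparisons was not tested. Markers of the labelled cells were low: the mean log2(FPKM + 1) of 10 interneuron genes was 0.94 to 2.53, whereas that of 12 microglia genes was 6.96 to 9.19. Sst itself was at 0 to 6.02 FPKM in the Sst males, 4.18 to 49.3 FPKM in the Sst females and 12.5 to 30.5 FPKM in the Pvalb males. Xist was at 300.2 to 333 FPKM in PV1-M, PV4-M and PV5-M, which are labelled male and also listed the Y-linked gene Ddx3y at 1.87 to 2.15 FPKM. In PV3-M and PV6-M Xist was at 6.64 and 5.12 FPKM and Ddx3y at 10.9 and 7.97 FPKM. The Sst male libraries had Xist at 0 to 0.360 FPKM. Xist is called high here above 10 FPKM.

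FPKM counts fragments per kilobase of transcript, so levels can be set side by side between genes. Over the 22 samples, Hspa8 had the highest median of the 10 genes (488 FPKM, range 369 to 1138), followed by Hsp90ab1 (229.9 FPKM) and Hsp90aa1 (64.2 FPKM). Hspa8 and Hsp90ab1 together made up 64.2% to 80.3% of the summed FPKM of the 10 genes. The mitochondrial pair stood at medians of 44.2 (Hspd1) and 36.2 FPKM (Hspe1), Dnajb1 at 35 and Hsph1 at 19.7 FPKM. The inducible HSP70 genes were the lowest, at 3.42 FPKM for Hspa1a and 1.53 FPKM for Hspa1b. Hspb1 had the widest range on the log2 scale, from 0 in PV5-M to 29.7 FPKM in a CUS male. Summed over the 10 genes, the level was 714 to 847 FPKM in females, 866 to 953 in Pvalb males, 1320.4 to 1577 in numbered males, 1517 to 1635 in dated control males and 1605 to 2469.7 in CUS males. In bulk samples, fewer cells of a type and less RNA per cell cannot be told apart.

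**Figure D1:**
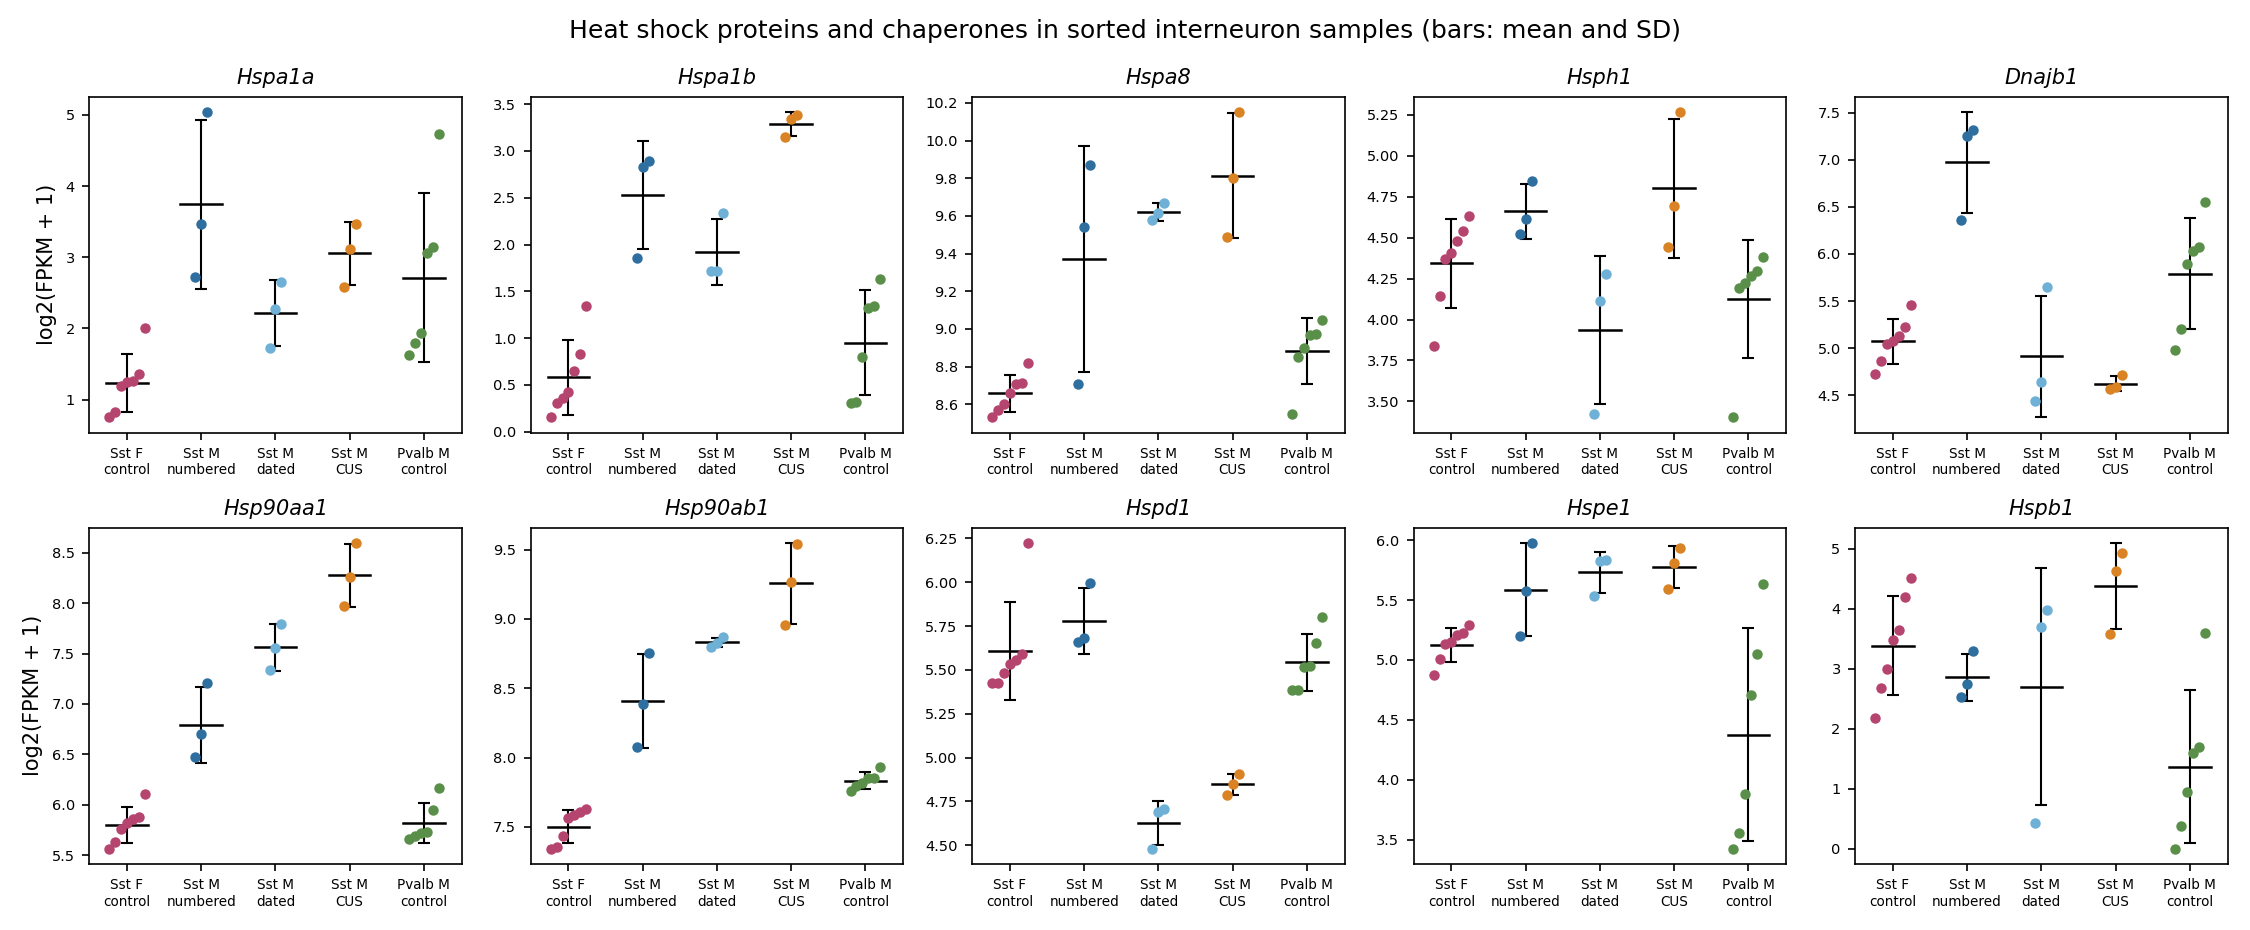
Level of each of the 10 genes as log2(FPKM + 1) on the vertical axis, by group on the horizontal axis (Sst control females, numbered and dated Sst control males, dated Sst CUS males and Pvalb control males). Points are samples and bars the mean and SD. Female points lie below all numbered male points for Hspa1a, Hspa1b, Dnajb1, Hsp90aa1 and Hsp90ab1, and dated control males lie below numbered males for Dnajb1 and Hspd1 among others.

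The first comparison asks how the sexes differ in nonstressed cells sorted as Sst interneurons. The inducible HSP70 genes, Dnajb1 and both cytosolic HSP90 genes were lower in females. Between 7 females and 3 numbered males, 5 of the 10 genes passed the threshold of limma with Benjamini-Hochberg adjustment (adjusted p under 0.05), all of them lower in females: Hspa1a, Hspa1b, Dnajb1, Hsp90aa1 and Hsp90ab1. Among all 14443 genes tested, 1.66% were called lower in females. In each of these 5 genes every female sample lay below every male sample, a separation that 4.48% of all genes showed. At an unadjusted p under 0.05 the number was 7 of 10, against 11.3% of all genes. The median log2 fold change of the 10 genes was -0.81, and that of all genes was 0.05.

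Dnajb1, the J-domain partner of HSP70, had the smallest adjusted p of the 10 genes. It was at 158 FPKM in SST0-M/SST1-M, 152 in SST4-M and 81.0 in SST3-M, and between 25.5 and 43.1 FPKM in the females (median 32.6). The groups did not overlap, and the difference was -1.90 on the log2(FPKM + 1) scale (SE 0.23, adjusted p = 0.00229).

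Hspa1a, the inducible HSP70, had the largest difference. Its FPKM was 5.59, 10.0 and 32 in SST0-M/SST1-M, then SST3-M and SST4-M and 0.682 to 3.0 in females (median 1.36). All females were below the males, of which SST4-M was far above the others. The log2 fold change was -2.51 (SE 0.43, adjusted p = 0.0174). Its copy Hspa1b was at 6.11, 2.63 and 6.44 FPKM in the same males and at 0.113 to 1.54 FPKM in females (median 0.339), again without overlap (log2 fold change -1.95, SE 0.31, adjusted p = 0.0147). The coding sequences of Hspa1a and Hspa1b shared 99.4% of their bases, so how reads were split between them is uncertain. Whether reads that match both were shared or discarded is unknown, and discarded reads would lower both genes. The sum of both does not depend on the split, but it would miss discarded reads. That sum was 0.795 to 3.24 FPKM in females and 11.7, 12.6 and 38.4 FPKM in numbered males. Hspa1l, another HSP70 gene beside them on chromosome 17, gave a log2 fold change of 0.65 (adjusted p = 0.41) and was not called.

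Both cytosolic HSP90 genes were lower in females. Hsp90aa1, the inducible form, was at 147, 87.7 and 103 FPKM in SST0-M/SST1-M, then SST3-M and SST4-M, and at 46.3 to 67.9 FPKM in females (median 55.4). The difference was -0.99 (SE 0.19, adjusted p = 0.0214). Hsp90ab1, the constitutive form, was at 431, 333 and 269 FPKM in the same males and at 161 to 197 FPKM in females (median 188), a difference of -0.91 (SE 0.18, adjusted p = 0.0235). Neither gene had a female sample within the male range.

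The other 5 genes were not called. Hspa8, the constitutive HSP70, was at 369 to 451 FPKM in females (median 404) and at 417, 934 and 743 FPKM in SST0-M/SST1-M, then SST3-M and SST4-M. The averaged pair lay inside the female range while the other males lay far above it, and the difference was -0.71 (95% interval -1.21 to -0.22, adjusted p = 0.0934). Without SST0-M/SST1-M it was -1.05 with an adjusted p of 0.00618, within a range of 0.00027 to 0.559 over 14 alternatives, and 6 of the 10 genes were then called lower (2.63% of all genes). The mitochondrial genes gave -0.46 for Hspe1 (interval -0.85 to -0.06) and -0.17 for Hspd1 (interval -0.60 to 0.25), Hsph1 gave -0.32 (interval -0.73 to 0.10) and Hspb1 gave 0.53 (interval -0.45 to 1.51). Their female and male ranges overlapped.

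The call for these genes depended on the male samples. Without SST3-M, 3 of the 10 genes were called lower (0.270% of all genes), with Hspa1a at an adjusted p of 0.0534 and Hsp90ab1 at 0.0734. The ranges over 14 alternatives were 0.00367 to 0.229 for Hspa1a and 2.45e-05 to 0.230 for Hsp90ab1. Against all 6 males of both title kinds, 6 of 10 were called lower (5.44% of all genes): Hspa1a, Hspa1b, Hspa8, Hsp90aa1, Hsp90ab1 and Hspe1. Against the 3 dated males alone the same 6 genes were called lower, where 19.1% of all genes were. These comparisons share the 7 females. Dnajb1 differed between them: -1.90 against numbered males, -0.87 against all males (adjusted p = 0.179) and 0.16 against dated males (adjusted p = 0.614), with a range of 0.00038 to 0.614 over 14 alternatives. Hspd1 was 0.98 higher in females than in dated males (adjusted p = 0.00101, range 0.00101 to 0.878).

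Other transcripts moved with the sexes. Immediate early genes (13 listed, such as Fos and Fosb, which cells switch on within minutes of stimulation) had a mean log2 level of 5.84 to 7.66 in females and 7.11 to 8.18 in numbered males. The 7.66 was that of SST-F, and the other females were at 5.84 to 6.32. Of the 13 immediate early genes 3 were called lower in females and none higher, with a median log2 fold change of -1.11. Among the 12 microglia genes 5 were called lower and 1 higher, and their mean level was 7.84 to 8.51 in females and 7.94 to 8.62 in numbered males. With the microglia mean as a covariate, 5 of the 10 chaperone genes were called lower, against 2.99% of all genes. Endothelial genes had higher values in females, with a median of 1.06, 1 of 5 called higher and 2 of 5 without overlap, and their mean level was 3.31 to 4.17 in females and 2.25 to 3.46 in numbered males. Of the 5 oligodendrocyte genes 1 was called higher, with a median of 0.61. The part of the immediate early, endothelial and oligodendrocyte genes in the result was not tested. Hsf1, the activator of heat shock genes, was at 27.3 to 41.6 FPKM in females and at 6.84, 35.4 and 37.6 FPKM in SST0-M/SST1-M, then SST3-M and SST4-M, with a difference of 0.75 (adjusted p = 0.273).

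**Figure D2:**
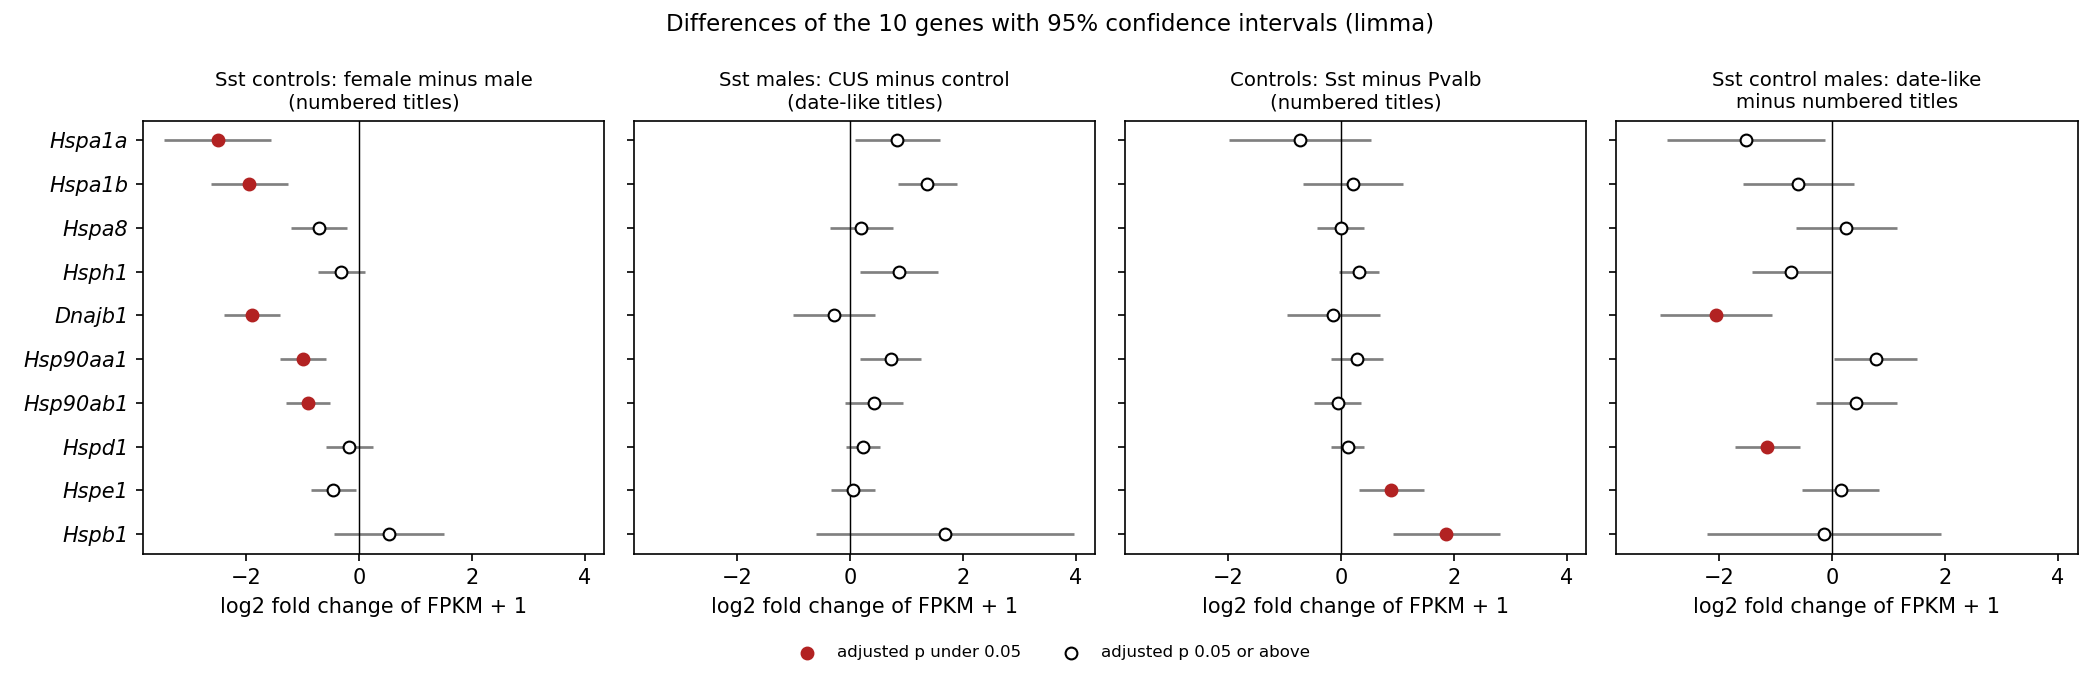
Log2 fold changes of FPKM + 1 (horizontal axis) with 95% confidence intervals for the 10 genes (rows) in 4 comparisons, filled where the adjusted p was under 0.05. In the female minus male panel 5 genes are filled and lie between -2.51 and -0.91, in the CUS panel none is filled, and in the Sst minus Pvalb panel Hspb1 and Hspe1 are filled.

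The second comparison asks how cells sorted as Sst interneurons of males differ after 14 days of CUS. Several cytosolic chaperones had higher values after CUS, but none of the 10 genes passed the adjusted threshold. With 3 CUS and 3 control males, all dated, limma called 1 of 14186 genes (0.00705%). That gene was Slc1a2, named after its value was seen, which was listed at 0 in all 3 controls. At an unadjusted p under 0.05, 4 of the 10 genes were higher after CUS (Hspa1b, Hsp90aa1, Hsph1 and Hspa1a) and none lower, against 4.11% of all genes. In 5 of the 10 every CUS sample lay above every control (Hspa1b, Hsp90aa1, Hsp90ab1, Hsph1 and Hspd1), against 9.33% of all genes. The median log2 fold change was 0.57 for the 10 genes and 0.00 for all genes.

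Hspa1b had the smallest p of the 10 genes. It was at 7.85, 9.15 and 9.43 FPKM in the CUS samples SS04031LL, SS04031RL and SS04031RR, and at 4.04, 2.30 and 2.29 FPKM in the controls SS04031R, SST040241L and SST04241LL. The log2 fold change was 1.37 (95% interval 0.85 to 1.88, adjusted p = 0.647). Hspa1a was at 4.99, 7.67 and 10.0 FPKM after CUS and at 5.28, 2.31 and 3.84 FPKM in controls, so that 1 CUS sample lay within the control range (0.84, interval 0.09 to 1.58). The sum of the near-identical pair was 12.8, 16.8 and 19.5 FPKM after CUS and 9.32, 4.60 and 6.13 FPKM in controls, without overlap.

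Hsp90aa1 was at 250.4, 306 and 386 FPKM after CUS and at 160.4, 221 and 187 FPKM in controls (log2 fold change 0.72, interval 0.18 to 1.26, adjusted p = 0.647). Hsp90ab1 was at 497, 616 and 744 FPKM against 445, 466 and 453 FPKM (0.43, interval -0.08 to 0.93). Both HSP90 genes stood above all controls in each CUS sample. Hsph1, the exchange factor, was at 20.8, 24.8 and 37.5 FPKM after CUS and at 9.72, 18.4 and 16.3 FPKM in controls (0.86, interval 0.17 to 1.56).

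Differences in the remaining genes were smaller than or close to the spread. Dnajb1 was at 23.0, 22.7 and 25.3 FPKM after CUS and at 49.2, 20.8 and 24.0 FPKM in controls, with SS04031R alone high (-0.29, interval -1.01 to 0.43). Hspa8 gave 0.19 (interval -0.37 to 0.75), Hspd1 gave 0.22 (interval -0.08 to 0.52) and Hspe1 gave 0.05 (interval -0.34 to 0.43). Hspb1 was at 11, 23.9 and 29.7 FPKM after CUS and at 0.344, 12 and 14.7 FPKM in controls. Its log2 fold change was 1.68 with SS04031R and 0.55 without it.

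SS04031R stood apart from the other 2 dated controls, with a microglia mean of 8.26 (7.22 and 7.33 in the others) and an endothelial mean of 1.69 (4.24 and 4.13). Without it, Hspa1b passed the threshold (log2 fold change 1.57, adjusted p = 0.0183, range 0.0183 to 0.896 over 15 alternatives) as 1 of the 10 genes, with 0.0985% of all genes called higher. SS04031R is also the only control whose title has the digits of the CUS titles. Without it, stress and title digits cannot be told apart. Across the CUS samples the microglia mean was 6.96 to 7.17, below all controls, and the mean of 5 oligodendrocyte genes was 7.28 to 7.57, above all controls (5.37 to 6.97). The immediate early mean was 6.61 to 7.10 after CUS and 5.89 to 6.88 in controls. The part of these differences in the chaperone values was not tested.

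Set against the 3 numbered control males, CUS samples gave another picture, in which stress and kind of title cannot be told apart. Hsp90aa1 (1.48, adjusted p = 0.0183) and Hspb1 (1.53, adjusted p = 0.0488) were then called higher, 2 of 10 against 8.45% of all genes. Dnajb1 (-2.35, adjusted p = 0.00669) and Hspd1 (-0.93, adjusted p = 0.0208) were called lower, 2 of 10 against 7.67%. The adjusted p of each of these 4 genes ran up to 0.896 or above over the 15 alternatives. Hspa1a was at -0.69, the reverse of its sign within dated samples.

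The size of the title difference was measured directly between the 3 dated and the 3 numbered control males, which share line, sex and treatment. This is not a comparison of the study. Dnajb1 and Hspd1 were called lower in dated males, 2 of 10 against 2.30% of all genes. Dnajb1 was at 49.2, 20.8 and 24.0 FPKM in SS04031R, SST040241L and SST04241LL, against the 81.0 to 158 FPKM of numbered males (-2.06, SE 0.42, adjusted p = 0.0434). Hspd1 was at 25.1, 21.3 and 24.8 FPKM, and at 62.8, 49.5 and 50.4 FPKM in SST0-M/SST1-M, then SST3-M and SST4-M (-1.15, SE 0.25, adjusted p = 0.0483). Both adjusted p lay near the threshold, and leaving out any of SS04031R, SST040241L, SST04241LL, SST3-M or SST4-M left 0 genes of the 10 called. Calls among all genes were also few in those fits, from 54 of 14167 (without SST040241L) to 149 of 14238 (without SS04031R).

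Dated samples were not lower throughout. Every dated control lay below every numbered male for Dnajb1, Hspa1a, Hsph1 and Hspd1, 4 of 10 against 17.0% of all genes, and above for Hsp90aa1 and Hsp90ab1, 2 of 10 against 16.4%. The differences for the HSP90 genes were 0.77 (adjusted p = 0.195) and 0.42 (adjusted p = 0.438). Immediate early genes were also lower in dated controls, with 4 of 13 called lower, a median of -1.33 and a mean level of 5.89 to 6.88 against 7.11 to 8.18.

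The third comparison sets cells sorted by the Sst label against cells sorted by the Pvalb label, both nonstressed. The HSP70 and HSP90 genes of the cytosol were not called, while Hspb1 and Hspe1 were higher in Sst samples, 2 of 10 against 4.87% of all 14483 genes. These were 10 numbered Sst samples of both sexes against 6 Pvalb males. The median log2 fold change was 0.16 for the 10 genes and 0.01 for all genes.

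Hspb1, the small heat shock protein, was at 0 to 11.1 FPKM in Pvalb males (median 1.47), at 3.51 to 21.8 FPKM in Sst females (median 10.2) and at 4.78, 5.72 and 8.78 FPKM in numbered Sst males. PV0-M/PV2-M alone among the Pvalb samples reached the Sst range. The difference was 1.86 (SE 0.45, adjusted p = 0.0168, range 0.00412 to 0.762 over 13 alternatives). Hspe1, the lid of the mitochondrial chamber, was at 9.74 to 48.8 FPKM in Pvalb males (median 19.4), at 28.4 to 38.1 FPKM in Sst females and at 61.9, 46.8 and 35.7 FPKM in numbered males. Of the Pvalb samples 2 lay within the Sst range and 4 below it (0.89, SE 0.28, adjusted p = 0.0487, range 0.0142 to 0.964). Its partner Hspd1 was at 40.7 to 54.8 FPKM in Pvalb males and gave 0.11 (interval -0.18 to 0.40).

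The lowest Hspe1 values, 9.74, 10.8 and 13.7 FPKM, were in PV5-M, PV1-M and PV4-M, the libraries with high Xist. These also held the 3 lowest Hspb1 values (0, 0.299 and 0.919 FPKM). Without them Hspb1 gave 0.93 (adjusted p = 0.397) and Hspe1 0.13 (adjusted p = 0.828), and none of the 10 genes was called. With the microglia mean as a covariate, none of the 10 was called and 1 gene passed in the whole table. Hspb1 was then at 1.71 (SE 1.03, against 0.45 without the covariate) and Hspe1 at 0.21 (SE 0.60, against 0.28). The microglia mean was 8.70 to 9.19 in Pvalb and 7.84 to 8.62 in numbered Sst samples. These ranges did not overlap, so that fit can hardly tell the covariate from line. The endothelial mean was 1.12 to 2.98 in Pvalb and 2.25 to 4.17 in numbered Sst samples. Endothelial genes were called higher in Sst samples in 4 of 5 cases, with a median of 2.14. Of the 5 excitatory neuron genes 2 were called lower in Sst samples, with a median of -0.93. Their mean level was 1.62 to 3.94 in Pvalb samples, where the 1.62 was that of PV0-M/PV2-M. It was 1.73 to 3.57 in Sst females and 1.66 to 2.53 in numbered Sst males. The part of endothelial and excitatory neuron genes in the Hspb1 difference was not tested.

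The remaining 8 genes had intervals that held 0. Those of the abundant genes Hspa8 (-0.01, interval -0.43 to 0.41) and Hsp90ab1 (-0.06, interval -0.48 to 0.36) were narrower than that of Hspa1a (-0.73, interval -1.99 to 0.53). Because the sexes differed within Sst, the 7 Sst females were also set against the Pvalb males alone. Line and labelled sex cannot be told apart in that comparison. Hspa1a (-1.48, adjusted p = 0.0209), Dnajb1 (-0.71, adjusted p = 0.0281) and Hsp90ab1 (-0.33, adjusted p = 0.0149) were then called lower in Sst, 3 of 10 against 12.2% of all genes, and Hspb1 was called higher (2.02, adjusted p = 0.0117), 1 of 10 against 12.9%. Over 13 alternatives the adjusted p reached 0.897, 0.993, 0.975 and 0.762 for these 4 genes. Against the 3 numbered Sst males the first 3 had the opposite sign, at 1.03 for Hspa1a, 1.18 for Dnajb1 and 0.57 for Hsp90ab1, whose every Sst male lay above every Pvalb sample. None of the 10 genes was called by limma there (adjusted p = 0.497, 0.253 and 0.256 for these 3), where 0.0912% of all genes were, while 7 of 10 were higher in Sst at an unadjusted p under 0.05, against 6.47% of all genes. Dnajb1 was at 30.6 to 92.7 FPKM in Pvalb males (median 61.5).

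Ratios between partners within a sample do not depend on any factor by which the whole sample was scaled. Hsp90aa1 was at 0.504, 0.497 and 0.519 of Hsp90ab1 in the CUS samples and at 0.361, 0.474 and 0.413 in the dated controls, so the inducible form made up more of the pair in every CUS sample. The ratio was 0.270 to 0.351 in females, 0.263 to 0.383 in numbered males and 0.216 to 0.291 in Pvalb males. No test was made of the ratios.

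Hspe1 and Hspd1, which share their promoter region and assemble with each other, did not keep a fixed ratio. Hspe1 was at 1.82 to 2.63 times Hspd1 in dated controls and 1.77 to 2.08 times in CUS samples, but at 0.709 to 0.987 in numbered males. In females it was 0.385 to 0.840, where the 0.385 was that of SST-F and the others were at 0.722 or above. Among Pvalb males it ran from 0.218 to 0.889, with PV1-M and PV5-M lowest. Inducible HSP70 (Hspa1a plus Hspa1b) was at 0.190% to 0.855% of Hspa8 in females, 1.35% to 5.17% in numbered males, 0.565% to 1.22% in dated controls and 1.71% to 1.89% after CUS. PV0-M/PV2-M had the highest value of all, 7.23%.

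**Figure D3:**
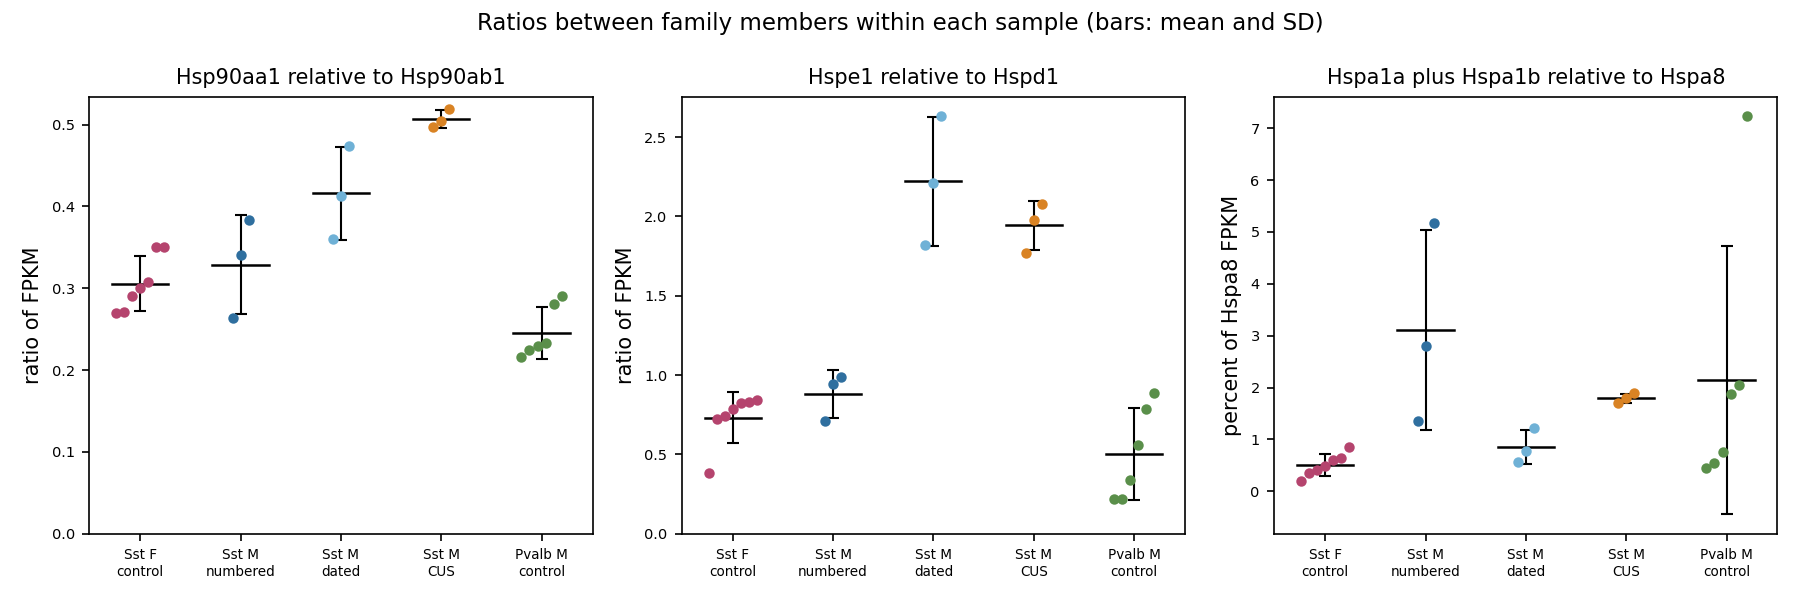
FPKM of Hsp90aa1 relative to Hsp90ab1, of Hspe1 relative to Hspd1, and of Hspa1a plus Hspa1b as a percentage of Hspa8 (vertical axes), by group (horizontal axis). Points are samples and bars the mean and SD. The CUS samples hold the highest Hsp90aa1 ratios, 0.497 to 0.519, and all dated samples lie at 1.77 or above for Hspe1.

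Other chaperones were examined as 8 lists with 107 genes in the table (further HSP70 and HSP90 genes, small heat shock proteins, J-domain proteins, cochaperones, the chaperonin CCT, prefoldin and heat shock factors). In females against numbered males 101 were tested, of which 4 were called lower and none higher (1.66% and 1.75% of all genes), with a median of -0.13. Hspa5, the HSP70 of the endoplasmic reticulum, was at 119.9 to 158 FPKM in females and 309 to 321 FPKM in numbered males (-1.20, SE 0.15, adjusted p = 0.00267), and Hsp90b1, the HSP90 of the same compartment, was at 240.2 to 267 FPKM and 372 to 511 FPKM (-0.77, SE 0.15, adjusted p = 0.0258). Dnaja1, a J-domain partner of cytosolic HSP70 (-0.67), and Dnajb13, a J-domain protein of cilia and sperm tails (-2.64), were the others. Females and males did not overlap in any of the 4. Of 24 cochaperones and 9 CCT subunits none was called, with medians of -0.09 and -0.37.

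After CUS 101 genes of these lists were tested and none was called by limma, while 3 were higher and 5 lower at an unadjusted p under 0.05 (4.11% and 2.63% of all genes), and the median was 0.05. Between Sst and Pvalb samples 100 were tested, with 5 called higher and 4 lower in Sst (4.87% and 5.34% of all genes). The higher genes were Hspa12b (0.94), Hspa4l (0.79), Cryab (1.01), Dnaja1 (0.64) and Dnajc3 (0.64). Cryab is an abundant small heat shock protein of glia, and it was at 42.5 to 172 FPKM in Pvalb males and at 67.1 to 175 FPKM in numbered Sst samples of either sex. The lower genes were Hspa12a (-0.92), Pfdn1 (-0.79), Dnajb5 (-0.57) and Dnajc5 (-0.44), the last a protein of synaptic vesicles. In dated against numbered control males 99 were tested, with Dnajb12 (1.74) called higher and Hsbp1 (-2.58), Dnajb4 (-1.57) and Dnaja1 (-1.34) called lower (1.81% and 2.30% of all genes). Hsbp1, which binds heat shock factor 1, was at 17.6 to 21.6 FPKM in dated controls and at 89.5 to 168 FPKM in numbered males.

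**Figure D4:**
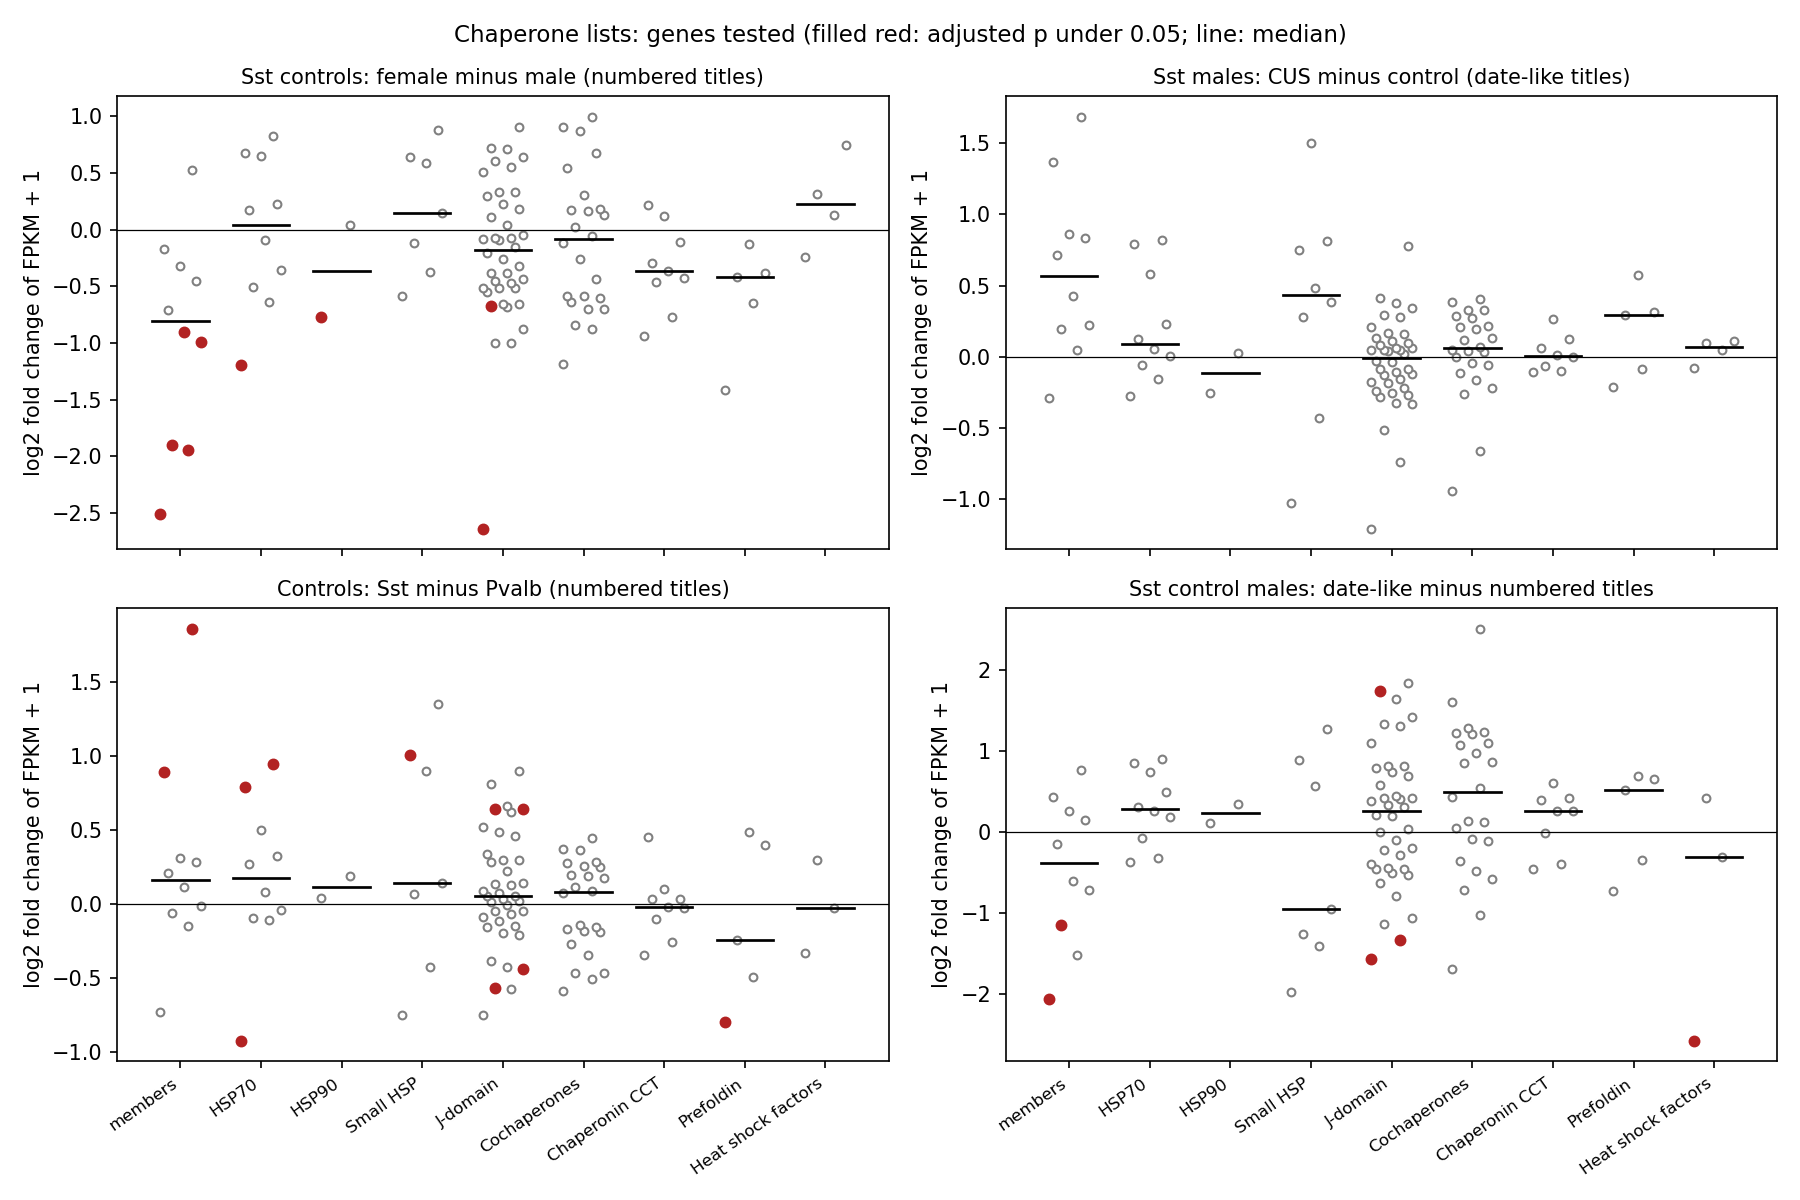
Log2 fold changes of FPKM + 1 (vertical axis) for the tested genes of each chaperone list and for the 10 genes (horizontal axis, leftmost), in 4 panels. Filled points had an adjusted p under 0.05 and lines are medians. In the female minus male panel the median of the 10 genes is -0.81 and that of the cochaperones is -0.09.

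Hspb1 had the widest range on the log2 scale, and its pattern over the 22 samples was closest to that of Abcb1a (Pearson's r = 0.938, Spearman's rho = 0.919), Fn1 (0.932 and 0.896), Tek (0.919 and 0.884), Sdpr (0.918 and 0.901) and Foxq1 (0.911 and 0.913). These are descriptions over samples that fall into 5 groups and share sorts and kinds of title. The genes were picked for the highest r among all that averaged over 0.4 FPKM across the samples. Tek was also among the 5 endothelial markers. The endothelial mean was 1.12 to 2.98 in Pvalb males, 2.25 to 3.46 in numbered males, 3.31 to 4.17 in females and 4.40 to 5.03 after CUS, and among the dated controls SS04031R was low in both the endothelial mean and Hspb1 (1.69 and 0.344 FPKM). The part of endothelial RNA in the Hspb1 values was not tested. Snord14c and Snord14d, small RNAs encoded within introns of Hspa8, were listed at 0 in every library, including those in which small nucleolar RNA genes took 53.5% or more of total FPKM.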

How the data were processed

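Expression was deposited by the authors as FPKM, in a single table with 23993 gene symbols as lines and 24 libraries of sorted mPFC interneurons as columns. The study's methods name alignment to mm10 with HISAT2 and quantification with StringTie, with mm9 and TopHat2 named for an earlier step, and the submitters' processing notes name mm10, TopHat2, Cufflinks and Cuffdiff. The methods also state that outlying samples were removed and that batches were corrected with ComBat, without saying whether this holds for the deposited values. The upper quartile was 9.50 to 10.7 FPKM in all libraries, and 12124 to 14255 genes were above 0.4 FPKM. There were no counts, so counting error is unknown, and a value of 0 may also be an estimate that failed.

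A pair of libraries in 1 group was averaged where the SD of its log2 ratios (genes above 5 FPKM) was less than 10% of the SD of the pair ranked next (SST0-M with SST1-M, 0.0212 against 0.267, and PV0-M with PV2-M, 0.0170 against 0.225). The limma package (3.58.1, R 4.3.3, trend and robust settings, two-sided) was run for genes averaging over 0.4 FPKM in a comparison, on log2(FPKM + 1), a scale that understates the change of low genes, and p-values were adjusted over all genes tested. Fits were tested on simulated data. Other steps used Python 3.11.15 with pandas 2.3.3. Shared replicate numbers in titles did not pair samples: same-number correlations of deviations were -0.04 to -0.02 between the sexes and -0.05 to 0.07 between the lines. Coding identity was computed from GENCODE M1.

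Genes named were the 10 genes, Hspa1l, Hsf1, the small RNAs of Hspa8, label and cell type markers, up to 4 genes per chaperone list and comparison with the largest changes past the threshold, and the 5 genes most correlated with the gene of widest range. The 10 genes and all lists were chosen with earlier results of these data known. Alternatives were the pseudocount, the filter, scaling, sharing 1 fit, averaging, samples left out, other control sets, the microglia covariate and a replicate block.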

Additional observations from a re-analysis of the deposited data

Results flagged for a closer look

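For each of the 10 genes the lowest and highest sample of the female, male control and Pvalb groups were compared with the rest of the group by Dixon's criterion, 30 sets in all, and 3 stood out where chance alone flags about 1 in 20. Hspd1 was at 73.7 FPKM in SST-F and at 42.0 to 47.2 FPKM in the other 6 females. That library also had the highest mean of excitatory neuron markers among the females (3.57). Hspa8 was at 417 FPKM in SST0-M/SST1-M and at 743 to 934 FPKM in the other 5 control males, while Hsp90aa1 and Hsp90ab1 of that sample lay within the range of the others. Hsph1 was at 9.58 FPKM in PV0-M/PV2-M and at 17.3 to 19.9 FPKM in the other 5 Pvalb males. The same sample had the highest Hspa1a, Hspb1, Dnajb1, Hsp90aa1, Hsp90ab1, Hspd1 and Hspe1 of its group. Its Hspa8 was the lowest of the group, at 374 FPKM against 461 to 528 FPKM in the others.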

How the results depend on the processing

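Of 550 refits of a single gene's log2 fold change, 461 kept direction and side of the threshold, 16 passed it newly, 34 no longer passed and 39 changed sign, and the cause was not tested. Genes called between the sexes were 253 higher and 240 lower in females, or 222 and 326 with a common median. They became 1232 in 1 fit over all samples, 2549 with near-identical libraries separate and 1699 against all males. Against dated males 6032 were called, and 878 with the microglia covariate. With 1 male left out the number was 100 without SST3-M, 899 without SST0-M/SST1-M and 1090 without SST4-M. Of the 10 genes, 3 were called lower without SST3-M (39 of all 14446 genes), 6 without SST0-M/SST1-M (380 of 14461) and 5 without SST4-M (541 of 14438). Signs changed for Hsph1 (0.045 against all, 0.41 against dated males), Hspd1 (0.10 after quantile normalization, 0.40 and 0.98) and Dnajb1 (0.16 against dated males). With a replicate block 11 genes were called, and 24 on the same samples without it (added after seeing the data), with 0 of the 10 genes in either, and Hspb1 gave -0.24. Genes called between Sst and Pvalb (1478) became 2744 in 1 fit over all samples, 13 with numbered Sst males, 3638 with Sst females, 9 without the libraries high in Xist and 1 with the microglia covariate. With the block 1645 were called, and 2504 on the same samples without it. Of the 10 genes, 1 was called higher with pseudocount 5 (587 of all 14483 genes), no filter (674 of 17959) or a common median (711 of 14483). The same number was called with separate libraries (640 of 14441) or Sst females (1874 of 14502). It was 0 with numbered males (2 of 14253), without high Xist (2 of 14467) or with the covariate (0 of 14483). Signs changed with quantile normalization (Hspa8 0.19, Hsp90ab1 0.039), separate libraries (0.023 and 0.016), all Sst controls (0.16 and 0.18, Hspd1 -0.12), numbered males (Hspa8 0.49, Hsp90ab1 0.57, Hspa1a 1.03, Dnajb1 1.18), Sst females (Hspa1b -0.37, Hsp90aa1 -0.015), without high Xist (Hspa8 0.081, Hspa1b -0.26, Dnajb1 0.067) and with the covariate (Hspa8 0.63, Hsp90ab1 0.18, Hspa1b -0.69). No sample was left out singly there, since both sides held over 5. For CUS, 3 genes were called in 1 fit over all samples, 2309 against numbered males (2 of the 10 higher) and 6 against controls of both sexes, and 1 to 16 with a sample left out (16 without SS04031R), with 0 or 1 of the 10. Signs changed for Hspa1a (-0.69) and Hspd1 (-0.93) against numbered males, Hspd1 against all males (-0.36) and both sexes (-0.57), Hspe1 with a common median (-0.0030) or a sample left out (-0.052 to 0.14), and Dnajb1 with a sample left out (-0.52 to 0.079, the latter without SS04031R). No paired analysis of CUS was made, since the dated titles gave no pairs. SS04031R shares its digits with all CUS titles, while those of SST040241L and SST04241LL differ. Dated against numbered controls gave 585 genes, 381 without the filter, 1110 after quantile normalization, 3608 in 1 fit over all samples, 1769 with separate libraries and 54 to 1962 with a sample left out. There 0 of the 10 genes were called without the filter (381 of all 17503 genes) or with a common median (507 of 14230). With a sample left out it was 0 to 3, the 3 without SST0-M/SST1-M, where 1962 of 14275 genes were called. Signs changed for Hspb1 (0.10 with pseudocount 5, -0.79 to 0.98 with a sample left out, the latter without SS04031R), Hspa8 (-0.082 without SST0-M/SST1-M, up to 0.50 without others) and Hspe1 (-0.047 without SST4-M, up to 0.34 without others).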
